A study of Mus musculus with 6 samples.

Results

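Collagen is modified, folded, trimmed and crosslinked by a set of enzymes and chaperones, and the transcripts of 35 such genes were compared in mouse MC3T3-E1 cells cultured with or without polymeric microparticles made from α-ketoglutarate. The genes were taken by name from a list of hydroxylases, chaperones, glycosyltransferases, lysyl oxidases, propeptide proteinases and trafficking factors, a list drawn up by role but with earlier results of these data known. Of the 35, 34 were analysed among 26187 genes in all, Adamts3 was not analysed here, and 31 passed the expression filter of a mean of 0.5 FPKM (fragments per kilobase of transcript, scaled to the mapped fragments of the library) that left 12590 genes for testing. The 2 groups were PAKG, cells given microparticles (MPs) of PAKG–8diol–PEG(S) for 2 days at 30 μg/mL (n = 3 libraries), and OC, cells kept for the same 2 days in the same osteoconductive medium without MPs (n = 3 libraries). The polymer joins α-ketoglutarate to 1,8-octanediol and polyethylene glycol, and no particle without α-ketoglutarate was among the 6 libraries. MC3T3-E1 is an immortal pre-osteoblast line from mouse calvaria, so both groups are a single cell line in culture, and the medium of both contained ascorbate and β-glycerophosphate.

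Procollagen chains are hydroxylated in the endoplasmic reticulum before they fold. Prolyl 4-hydroxylases stabilise the triple helix, lysyl hydroxylases prepare sites for sugars and crosslinks, and prolyl 3-hydroxylases act on a few prolines. All of these hydroxylases belong to the dioxygenases that consume 2-oxoglutarate, which is another name for α-ketoglutarate, together with oxygen, and that need iron and ascorbate. The collagen-specific chaperone Hsp47, encoded by Serpinh1, and peptidyl-prolyl isomerases then assist folding, COPII coat proteins and TANGO1 carry the molecule out, proteinases remove its ends and lysyl oxidases crosslink the fibres outside the cell.

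The summed values of the 6 libraries ran between 289675.9 and 310581.7 FPKM in PAKG and between 295863.6 and 325818.2 FPKM in OC, and the steps between low values give an estimated 32800000 to 41800000 fragments in PAKG and 32400000 to 37200000 in OC. All 6 osteoblast-lineage markers on the list (Runx2, Sp7, Alpl, Col1a1, Ibsp, Bglap) were detected in every library and rose in PAKG. The summed leukocyte markers were at most 0.69 FPKM in PAKG and 0.64 FPKM in OC, and endothelial markers were at most 0.03 FPKM in PAKG and 0.02 FPKM in OC. The epithelial markers summed to at most 0.23 FPKM in PAKG and 0.11 FPKM in OC. The 3 adipocyte markers summed to at most 0.04 FPKM in PAKG and to between 0.02 and 1.00 FPKM in OC, the highest value being that of OC replicate 3 (Fabp4 at 0.58, Adipoq at 0.36 and Plin1 at 0.06 FPKM). Nothing in the labels says whether the libraries of a group came from separate cultures, so each p-value reflects the spread among these libraries alone, and that spread may be technical.

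In all, 10 genes of the set rose in PAKG, and the propeptide proteinases and the prolyl 3-hydroxylase family held 6 of them. At an adjusted p under 0.05 (limma, Benjamini-Hochberg over all genes tested), 10 of the 31 tested members rose, which is 32.3%, beside 5.97% of all tested genes, and 0 members fell, beside 8.73% of all tested genes. At an unadjusted p under 0.05 the counts were 13 higher, beside 12.0% of all tested genes, and 2 lower, beside 16.8%. When a fold change of at least 2 was required as well, the count at the adjusted p was 0 in either direction. Beside it, 0.866% of all tested genes were higher and 0.58% lower at the same thresholds. The change of every member that rose was thus smaller than 2-fold. At the unadjusted p with that fold change the count was also 0 in either direction, and the share over all tested genes was not counted. For 16 members all PAKG libraries were above all OC libraries, beside 13.7% of all tested genes, and for 3 members all were below, beside 19.6%. The median log2 fold change was 0.13 over the members and -0.03 over all tested genes. Of all genes called at the adjusted p, 40.6% were higher, a share that moved to 53.3% when each library was rescaled to a common total.

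In the limma fit above, the hydroxylases dependent on 2-oxoglutarate and the rest of the set had near the same share of genes that rose. Of the 9 hydroxylases 3 rose (Plod2, P3h1 and P3h3), which is 33.3%, and of the 22 tested members without hydroxylase activity 7 rose, which is 31.8%. The median log2 fold change was 0.10 for the hydroxylases and 0.16 for the other members, and the difference between these medians was not tested. In a fit that blocked on the replicate number, called the blocked fit from here on, 13 members rose, beside 12.3% of all tested genes. In the same fit 2 fell (P4ha3 and P3h2), beside 17.1% of all tested genes. Both that fell were hydroxylases, of which 3 of 9 rose there, while 10 of the 22 other members rose and 0 fell.

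**Figure D1:**
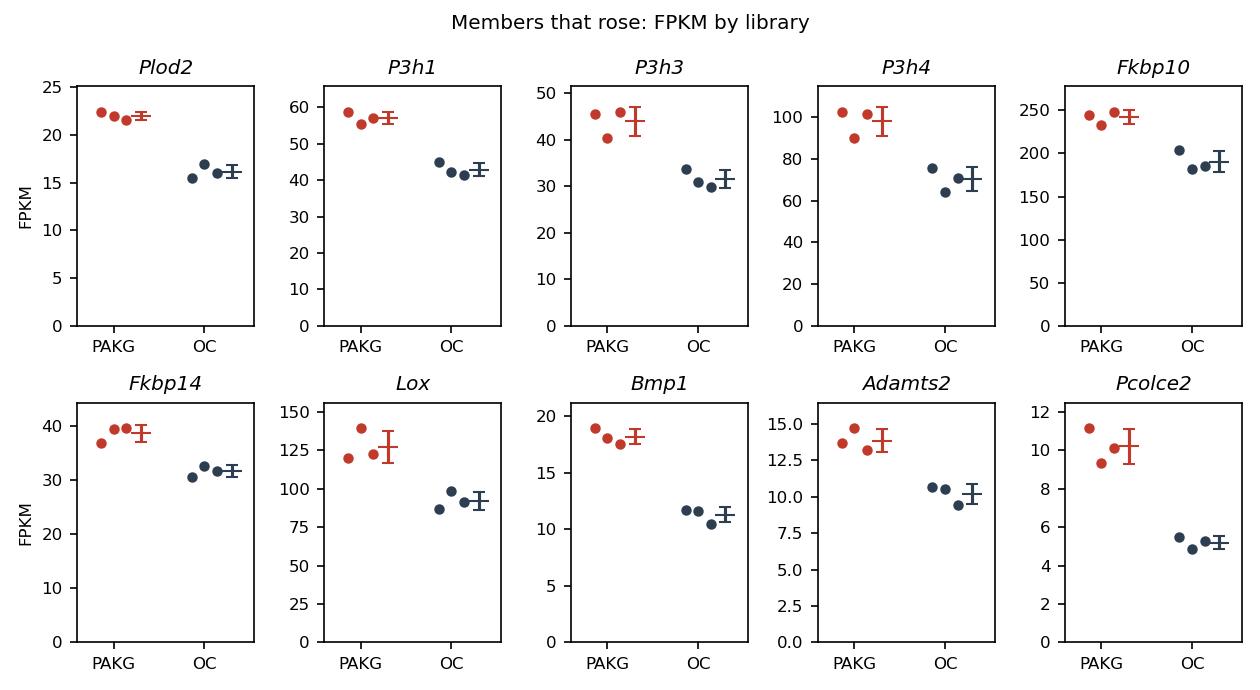
FPKM (y axes, starting at 0) of the 10 members that rose, with PAKG libraries in red at the left and OC libraries in dark blue at the right of each panel. Points are single libraries in the order of replicates 1 to 3, and the bar beside them is the mean ± SD (n = 3). In each of the 10 panels the lowest PAKG library lies above the highest OC library.

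**Figure D2:**
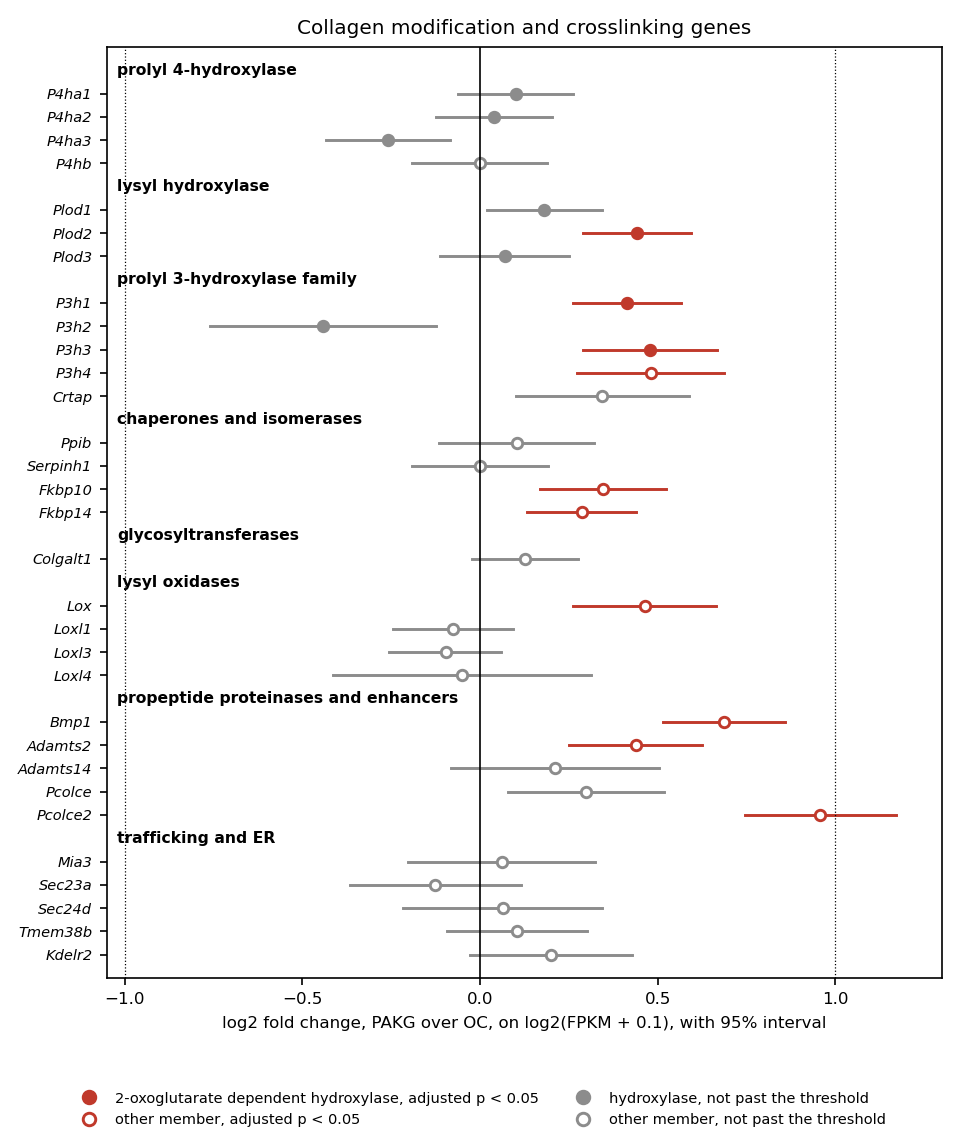
Log2 fold change of PAKG over OC (x axis, on log2(FPKM + 0.1)) with its 95% interval for the 31 tested members, grouped by role from top to bottom. Red marks members past an adjusted p of 0.05, filled circles mark 2-oxoglutarate dependent hydroxylases, and the dotted lines are a 2-fold change. Pcolce2 is farthest right at 0.96 and P3h2 farthest left at -0.44.

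The upstream sequences of 6 members are shown because they set 4 genes that rose beside 2 abundant ones that did not, and because α-ketoglutarate is also the cosubstrate of the prolyl hydroxylases that control hypoxia-inducible factor. They were chosen after the expression values were seen. Each is the 250 bases before the annotated start, from RefSeq on GRCm38, read 5′ to 3′ on the gene's strand, with capitals marking the hypoxia response core (ACGTG, or CACGT on the other strand) and the GC box (GGGCGG, or CCGCCC on the other strand). P3h1 is at chr4:119232665-119232914 on the + strand, P3h3 at chr6:124857718-124857967 on the - strand, Pcolce2 at chr9:95637378-95637627 on the + strand and Adamts2 at chr11:50601835-50602084 on the + strand. P4ha1 is at chr10:59323046-59323295 on the + strand and Serpinh1 at chr7:99353240-99353489 on the - strand.
P3h1: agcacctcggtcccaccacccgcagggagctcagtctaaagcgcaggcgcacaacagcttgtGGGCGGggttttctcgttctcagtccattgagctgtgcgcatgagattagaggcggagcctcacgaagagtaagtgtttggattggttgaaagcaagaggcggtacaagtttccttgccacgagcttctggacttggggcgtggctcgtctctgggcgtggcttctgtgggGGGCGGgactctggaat
P3h3: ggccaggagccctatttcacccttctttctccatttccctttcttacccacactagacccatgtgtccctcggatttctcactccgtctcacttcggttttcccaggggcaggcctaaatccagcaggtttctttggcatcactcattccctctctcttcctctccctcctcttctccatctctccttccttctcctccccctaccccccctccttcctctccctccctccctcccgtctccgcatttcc
Pcolce2: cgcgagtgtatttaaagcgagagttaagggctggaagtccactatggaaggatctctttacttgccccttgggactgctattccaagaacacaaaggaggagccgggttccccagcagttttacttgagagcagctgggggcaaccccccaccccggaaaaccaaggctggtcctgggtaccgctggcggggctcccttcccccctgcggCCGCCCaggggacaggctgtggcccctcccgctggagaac
Adamts2: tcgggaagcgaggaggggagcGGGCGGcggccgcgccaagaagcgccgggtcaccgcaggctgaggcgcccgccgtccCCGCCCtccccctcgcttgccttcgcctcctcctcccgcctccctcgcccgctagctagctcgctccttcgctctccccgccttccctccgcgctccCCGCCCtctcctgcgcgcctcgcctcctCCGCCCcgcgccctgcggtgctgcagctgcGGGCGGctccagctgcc
P4ha1: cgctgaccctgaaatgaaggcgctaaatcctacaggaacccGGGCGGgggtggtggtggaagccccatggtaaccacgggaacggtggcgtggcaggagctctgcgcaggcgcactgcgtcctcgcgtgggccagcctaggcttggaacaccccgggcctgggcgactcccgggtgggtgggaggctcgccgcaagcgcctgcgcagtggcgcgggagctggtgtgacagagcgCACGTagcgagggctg
Serpinh1: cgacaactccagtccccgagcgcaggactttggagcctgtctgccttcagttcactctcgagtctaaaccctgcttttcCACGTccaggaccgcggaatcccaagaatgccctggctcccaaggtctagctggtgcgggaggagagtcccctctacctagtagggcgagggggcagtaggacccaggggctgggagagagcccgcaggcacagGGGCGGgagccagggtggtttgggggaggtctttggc

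These 4 promoters of genes that rose hold no ACGTG, whereas P4ha1 and Serpinh1 hold 1 each. Only ACGTG was searched for this core, and the variant GCGTG, which the P3h1 and P4ha1 sequences above hold, was not counted. The GC box occurs 5 times in Adamts2, 2 times in P3h1 and 1 time each in Pcolce2, P4ha1 and Serpinh1, and not in P3h3. RefSeq promoters were found for 22 of the 34 members, with none for Bmp1, Colgalt2, Fkbp10, Kdelr2, Lox, Loxl1, Loxl2, Loxl3, P3h2, P3h4, Plod2 and Tmem38b. The RefSeq start used lay 2380 bases from the GENCODE gene start for Pcolce, 829 for P4ha2 and 263 for Tll1. For the other members found it lay at most 53 bases away. ACGTG occurred in 8 of the 22 (P4ha1, P4ha2, P4hb, Plod3, Ppib, Serpinh1, Mia3 and Sec24d), which is 36.4%, beside 16.6% of all 32851 promoters of the same length. It occurred in 0 of the 5 members that rose and had a promoter, and in 8 of the 16 tested members that did not pass the threshold. The other members that rose (Bmp1, Fkbp10, Lox, P3h4 and Plod2) had no promoter to search. GGGCGG occurred in 17 of the 22, which is 77.3%, beside 32.7% of all promoters, in 3 of the 5 that rose and in 14 of the 16 tested members that did not pass the threshold. CCAAT, which was searched on both strands and which the capitals do not mark, occurred in 7 of the 22, beside 33.8% of all promoters. The 32851 promoters were not limited to tested genes or to 1 per gene, unlike those of the members, so the shares are not like for like. The matches describe letters in these windows and were not tested against expression.

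None of the prolyl 4-hydroxylase genes passed the threshold. P4hb, protein disulfide isomerase, which is the shared β subunit of the enzyme, was the most abundant of the 4, with 509.8, 462 and 497 FPKM in PAKG libraries 1 to 3, against 517, 471 and 482 FPKM in OC libraries 1 to 3. The groups of P4hb overlapped, and its log2 fold change was 0.00 with a 95% interval of -0.19 to 0.19. P4ha1, the main catalytic subunit in most cells, had 34.2, 31.6 and 31.2 FPKM in PAKG, against 30.7, 31.1 and 28.7 FPKM in OC, with a log2 fold change of 0.10 and an interval of -0.06 to 0.26. All 3 PAKG libraries of P4ha1 were above all OC libraries, by a margin smaller than the spread within either group. P4ha2, a second catalytic subunit, averaged 9.84 ± 0.32 FPKM in PAKG and 9.57 ± 0.42 FPKM in OC (SD, n = 3 each).

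The third catalytic subunit, P4ha3, ran the other way. It had 28.5, 32.4 and 31.2 FPKM in PAKG, against 37.9, 34.9 and 37.4 FPKM in OC, and the groups did not overlap. The log2 fold change of P4ha3 was -0.26 ± 0.07 (SE) with an adjusted p of 0.0589, and in the blocked fit the adjusted p was 0.0367 and P4ha3 fell. Without PAKG replicate 2, and without replicate 2 of both groups, P4ha3 also passed the threshold. It did not pass under either other scaling, with adjusted p-values of 0.149 for rescaling to a common total and 0.0875 for median-ratio scaling. Nor did P4ha3 pass when any other single library was left out, with adjusted p-values of 0.0727 to 0.186. Over the 4 genes limma gave 0 higher and 0 lower at the adjusted p, beside 5.97% and 8.73% of all tested genes. At an unadjusted p under 0.05 it gave 0 higher and 1 lower, beside 12.0% and 16.8%.

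Among the lysyl hydroxylases, Plod2 rose and neither Plod1 nor Plod3 passed the threshold. Plod2 (chr9:92542223-92608428, + strand) encodes lysyl hydroxylase 2, which acts on the telopeptides of collagen and so sets the kind of crosslink formed. It had 22.4, 22.0 and 21.5 FPKM in PAKG, against 15.5, 16.9 and 16.0 FPKM in OC, with no overlap. This is a log2 fold change of 0.44 ± 0.07 (SE), or 1.36-fold, with an adjusted p of 0.00471, and Plod2 was called under every alternative run. Plod3, which also carries a glycosyltransferase activity, was the most abundant of the 3, with 29.0, 25.9 and 30.1 FPKM in PAKG, against 28.0, 26.4 and 26.4 FPKM in OC. The groups of Plod3 overlapped, and its log2 fold change was 0.07 with an interval of -0.11 to 0.25. Plod1, which hydroxylates the helix, averaged 8.68 ± 0.35 FPKM in PAKG and 7.65 ± 0.21 FPKM in OC (SD, n = 3 each), without overlap but with an adjusted p of 0.132. Plod3 overlaps Znhit1 on the opposite strand by 1003 bases, and the counting is not stated to use strand.

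In the prolyl 3-hydroxylase family 3 of 5 genes rose and 0 fell by limma, beside 5.97% and 8.73% of all tested genes. At an unadjusted p under 0.05, 4 were higher and 1 lower, beside 12.0% and 16.8%. P3h1 (chr4:119232915-119248975, + strand) is the catalytic subunit of a complex with Crtap and cyclophilin B that modifies type I collagen, and it is linked to recessive brittle bone disease. P3h1 had 58.8, 55.3 and 57.0 FPKM in PAKG, against 44.8, 42.2 and 41.4 FPKM in OC, and the groups stood well apart. Its log2 fold change was 0.41 ± 0.07 (SE), or 1.33-fold, with an adjusted p of 0.00639, and it was called under every alternative run. P3h3 (chr6:124841089-124857752, - strand), which works in a complex with the product of P3h4 and lysyl hydroxylase 1, had 45.6, 40.4 and 46.0 FPKM in PAKG, against 33.7, 31.0 and 29.9 FPKM in OC. The log2 fold change of P3h3 was 0.48 ± 0.08 (SE), or 1.39-fold, with an adjusted p of 0.00839, and it too held under every alternative run.

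P3h4, whose protein SC65 has no hydroxylase activity of its own, rose by nearly the same factor as its partner P3h3. P3h4 (chr11:100408456-100414836, - strand) had 102.6, 89.96 and 101.3 FPKM in PAKG, against 75.6, 64.2 and 71.0 FPKM in OC, with replicate 2 the lowest library of both groups. It changed by 0.48 ± 0.09 (SE) on the log2 scale with an adjusted p of 0.0117, and P3h4 missed the threshold without PAKG replicate 3 and without OC replicate 3. Crtap, the non-catalytic partner of P3h1 and the most abundant member of the family, had 143, 119 and 143 FPKM in PAKG, against 114, 95.4 and 109 FPKM in OC. Crtap was likewise lowest in replicate 2 of both groups, and all PAKG libraries were above all OC libraries. Its log2 fold change of 0.34 ± 0.10 (SE) had an adjusted p of 0.0687, and in the blocked fit the adjusted p was 0.0042 and Crtap rose. It also passed under both other scalings, with adjusted p-values of 0.014 for rescaling to a common total and 0.0442 for median-ratio scaling.

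P3h2, the prolyl 3-hydroxylase that acts mainly on basement membrane collagen, was scarce and lower in every PAKG library. It had 1.32, 1.11 and 1.06 FPKM in PAKG, against 1.70, 1.68 and 1.46 FPKM in OC. The log2 fold change was -0.44 ± 0.14 (SE) with an adjusted p of 0.0726, and in the blocked fit the adjusted p was 0.0313 and P3h2 fell. Within this family of 5 genes the groups did not overlap for any member, with 4 higher in PAKG, beside 13.7% of all tested genes, and 1 lower, beside 19.6%.

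Of the chaperones and isomerases, both FKBP isomerases rose and the most abundant chaperone was level between the groups. Serpinh1 (Hsp47) had the highest level of all 34 members, with 627, 657 and 655 FPKM in PAKG, against 677, 604 and 658 FPKM in OC. The groups of Serpinh1 overlapped throughout, and its log2 fold change was 0.00 with an interval of -0.19 to 0.19. Fkbp10 (chr11:100415697-100424824, + strand) encodes FKBP65, an endoplasmic reticulum isomerase needed for lysyl hydroxylase 2 activity and mutated in recessive brittle bone disease. Fkbp10 had 244, 233 and 248 FPKM in PAKG, against 204, 182 and 186 FPKM in OC, without overlap. Its log2 fold change was 0.35 ± 0.08 (SE), or 1.27-fold, with an adjusted p of 0.0232.

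Fkbp14 (chr6:54577604-54597308, - strand), which encodes FKBP22 and is mutated in a kyphoscoliotic form of Ehlers-Danlos syndrome, had 36.8, 39.4 and 39.5 FPKM in PAKG, against 30.5, 32.6 and 31.7 FPKM in OC. Its log2 fold change was 0.29 ± 0.07 (SE), or 1.22-fold, with an adjusted p of 0.0271. Both isomerase calls were close to the threshold. Fkbp10 missed it without the expression filter, without PAKG replicate 1 or 3 and without OC replicate 2 or 3, and Fkbp14 missed it without PAKG replicate 3 and without OC replicate 1 or 3. Ppib, cyclophilin B, averaged 64.2 ± 7.35 FPKM in PAKG and 59.5 ± 2.04 FPKM in OC (SD, n = 3 each), with overlapping groups.

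Several of these genes lie close to others on the genome. The starts of P3h4 and Fkbp10 are 861 bases apart on opposite strands, so both genes that rose there share an intergenic stretch. Fkbp10 overlaps Nt5c3b on the opposite strand by 2504 bases, and Nt5c3b had a mean of 17.0 FPKM beside 216 FPKM for Fkbp10 over the 6 libraries and a log2 fold change of -0.26 that did not pass the threshold. Fkbp14 overlaps Plekha8 on the opposite strand by 2198 bases, with a mean of 3.45 FPKM for Plekha8 beside 35.1 FPKM for Fkbp14. Loxl3 overlaps Htra2 on the opposite strand by 1297 bases, with a mean of 23.0 FPKM for Htra2 beside 22.7 FPKM for Loxl3. Ppib overlaps Snx22 by 1448 bases and Colgalt1 overlaps Unc13a by 495 bases, also on the opposite strand, with means of 1.7 and 0.635 FPKM for these neighbours. Without a stated use of strand in the counting, the split of reads within these overlaps is uncertain. For Loxl3 this extends to the sum of Lox paralogues used below.

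Colgalt1, the galactosyltransferase that starts the sugar side chain on hydroxylysine, had 60.6, 65.5 and 63.0 FPKM in PAKG, against 58.7, 58.1 and 56.3 FPKM in OC. All PAKG libraries of Colgalt1 were above all OC libraries, with a log2 fold change of 0.13, an interval of -0.02 to 0.28 and an adjusted p of 0.24. Its paralogue Colgalt2 was listed at 0.00 to 0.01 FPKM in PAKG and at 0.00 FPKM in all OC libraries and was not tested.

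Lox rose, and the 3 other tested lysyl oxidases did not pass the threshold. Lox, lysyl oxidase, oxidises lysines of collagen and elastin to the aldehydes from which crosslinks form, and it was the most abundant of its class. It had 119.9, 139 and 122 FPKM in PAKG, against 86.8, 98.3 and 91.4 FPKM in OC, with replicate 2 the highest library of both groups and no overlap. For Lox the log2 fold change was 0.46 ± 0.09 (SE), or 1.38-fold, with an adjusted p of 0.0121, and it missed the threshold without OC replicate 1 and without OC replicate 3. Loxl1, tied mainly to elastic fibres, averaged 4.64 ± 0.15 FPKM in PAKG and 4.89 ± 0.06 FPKM in OC, and Loxl3 averaged 21.9 ± 0.57 FPKM in PAKG and 23.5 ± 1.20 FPKM in OC (SD, n = 3 each). Loxl4 had the widest spread of all tested members within PAKG, a coefficient of variation of 20.4%, and averaged 12.2 ± 2.49 FPKM in PAKG and 12.6 ± 1.69 FPKM in OC. The log2 fold changes of these 3 paralogues were between -0.10 and -0.05 with adjusted p-values of 0.4 to 0.872. Loxl2 was at 0.00 to 0.03 FPKM in both groups and was not tested.

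The largest rises of the set were in the genes that trim the procollagen ends. Pcolce2 (chr9:95637601-95698096, + strand), a procollagen C-proteinase enhancer, had 11.2, 9.36 and 10.1 FPKM in PAKG, against 5.49, 4.84 and 5.27 FPKM in OC. The lowest PAKG library of Pcolce2 was well above the highest OC library. Its log2 fold change was 0.96 ± 0.09 (SE), or 1.94-fold, with an adjusted p of 0.000849, and it passed the 2-fold threshold at 1.00 when each library was rescaled to a common total. Bmp1 (chr14:70474558-70520234, - strand), the C-proteinase that this enhancer assists and an activator of lysyl oxidase, had 18.9, 18.1 and 17.6 FPKM in PAKG, against 11.7, 11.6 and 10.5 FPKM in OC. For Bmp1 the log2 fold change was 0.69 ± 0.07 (SE), or 1.61-fold, with an adjusted p of 0.00126, and the calls of Pcolce2 and Bmp1 held under every alternative run.

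Adamts2 (chr11:50602084-50807573, + strand), the N-proteinase of fibrillar procollagens, had 13.7, 14.7 and 13.2 FPKM in PAKG, against 10.7, 10.5 and 9.42 FPKM in OC, without overlap. For Adamts2 the log2 fold change was 0.44 ± 0.08 (SE), or 1.35-fold, with an adjusted p of 0.0115, and it missed the threshold without OC replicate 3. Pcolce, the first enhancer of the C-proteinase and the most abundant gene of the class, had 241, 201 and 234 FPKM in PAKG, against 195, 172 and 181 FPKM in OC. All PAKG libraries of Pcolce were above all OC libraries, and replicate 2 was the lowest in both groups. Its log2 fold change of 0.30 ± 0.09 (SE) had an adjusted p of 0.0773, and in the blocked fit the adjusted p was 0.00962 and Pcolce rose. It also passed under both other scalings, with adjusted p-values of 0.0191 for rescaling to a common total and 0.0466 for median-ratio scaling. Pcolce overlaps Fbxo24 on the same strand by 1282 bases, so its level carries that uncertainty.

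The related N-proteinase Adamts14 averaged 2.53 ± 0.22 FPKM in PAKG and 2.18 ± 0.30 FPKM in OC (SD, n = 3 each), with overlapping groups and an adjusted p of 0.323. Tll1, a relative of Bmp1, was at 0.08 to 0.11 FPKM in PAKG and 0.11 to 0.19 FPKM in OC and was not tested. All 5 tested genes of this class had log2 fold changes above 0, beside 44.5% of all tested genes. Their median was 0.44, beside -0.03 over all tested genes. By limma 3 of the 5 rose and 0 fell, beside 5.97% and 8.73% of all tested genes.

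The genes for export from the endoplasmic reticulum and for its ion balance and retrieval gave no call by limma. At the adjusted p under 0.05, 0 were higher and 0 lower, beside 5.97% and 8.73% of all tested genes. At the unadjusted p under 0.05 the counts were also 0 and 0, beside 12.0% and 16.8%. With 5 genes tested, counts of 0 cannot be told apart from these shares. Kdelr2, a receptor that returns chaperones such as Hsp47 to the endoplasmic reticulum, was the most abundant, with 198.9, 165 and 198.9 FPKM in PAKG, against 169.9, 152 and 167 FPKM in OC. The groups of Kdelr2 overlapped through PAKG replicate 2, its log2 fold change was 0.20 with an adjusted p of 0.228, and in the blocked fit the adjusted p was 0.0308 and Kdelr2 rose. Mia3, which encodes TANGO1, averaged 29.2 ± 2.66 FPKM in PAKG and 28.1 ± 3.86 FPKM in OC, and the COPII coat genes Sec23a and Sec24d had log2 fold changes of -0.13 and 0.06. Tmem38b, an intracellular cation channel of the endoplasmic reticulum, averaged 2.93 ± 0.07 FPKM in PAKG and 2.72 ± 0.11 FPKM in OC (SD, n = 3 each), with a log2 fold change of 0.10.

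Part of the substrates of these enzymes rose as well. Of 18 collagen chain genes 17 were tested, 3 rose, beside 5.97% of all tested genes, and 1 fell, beside 8.73%, and their median log2 fold change was 0.30. Col1a1, the major chain of type I collagen, had 4286, 4697 and 4308 FPKM in PAKG, against 2859, 3539 and 2905 FPKM in OC, with a log2 fold change of 0.52 ± 0.12 (SE) and an adjusted p of 0.0296. Col6a2 (log2 fold change 0.39, adjusted p 0.0257) and Col16a1 (0.30, adjusted p 0.0404) also rose, and Col18a1, a basement membrane chain, fell by 0.41 on the log2 scale with an adjusted p of 0.0241. Col1a2, the partner chain of type I collagen, averaged 2405 ± 189 FPKM in PAKG and 1788 ± 214 FPKM in OC (SD, n = 3 each), with a log2 fold change of 0.43 and an adjusted p of 0.0531.

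Ratios within a library set the modifiers against type I collagen, free of any scaling between libraries. The 9 hydroxylases summed to 238, 227 and 237 FPKM in PAKG, against 210.1, 201 and 198 FPKM in OC, while Col1a1 and Col1a2 together summed to 6555, 7318 and 6634 FPKM in PAKG, against 4582, 5567 and 4520.0 FPKM in OC. The ratio of hydroxylases to type I chains averaged 0.0344 ± 0.0029 in PAKG and 0.0419 ± 0.0052 in OC (SD, n = 3 each), with overlapping groups and an exact permutation p of 0.2. Within same-numbered pairs it was lower in PAKG in all 3, by log2 differences of -0.34, -0.22 and -0.30. Serpinh1 over the type I chains was 0.0956, 0.0897 and 0.0987 in PAKG, against 0.148, 0.109 and 0.146 in OC, lower in all 3 PAKG libraries. The ratio of the summed lysyl oxidases to the type I chains was also lower in all 3 PAKG libraries, at 0.0243 ± 0.0004 in PAKG and 0.0274 ± 0.0018 in OC (SD, n = 3 each).

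Related enzymes were set against each other in the same way. Lox over the sum of its paralogues was 3.25, 3.37 and 3.21 in PAKG, against 2.05, 2.32 and 2.40 in OC, a log2 difference of 0.54. Plod2 over Plod1 was 2.68, 2.43 and 2.50 in PAKG, against 2.00, 2.28 and 2.06 in OC, a log2 difference of 0.26. Pcolce over Bmp1 averaged 12.4 ± 1.14 in PAKG and 16.2 ± 1.31 in OC (SD, n = 3 each), lower in all 3 PAKG libraries. The ratios of P4ha1 to P4ha2 and of the summed P4ha genes to P4hb overlapped between the groups, each with an exact permutation p of 0.3. Of the 8 ratios 5 did not overlap, and each of these gave an exact 2-sided permutation p of 0.1, the smallest this test can give for 3 against 3 libraries, and 0.16 after adjustment over the 8, so this test cannot place any of them below 0.05. Between libraries of the same replicate number, 7 of the 8 ratios moved one way in all 3 pairs, with an exact paired p of 0.25, the smallest 3 pairs can give, and P4ha1 over P4ha2 was higher in 2 of the 3 pairs.

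**Figure D3:**
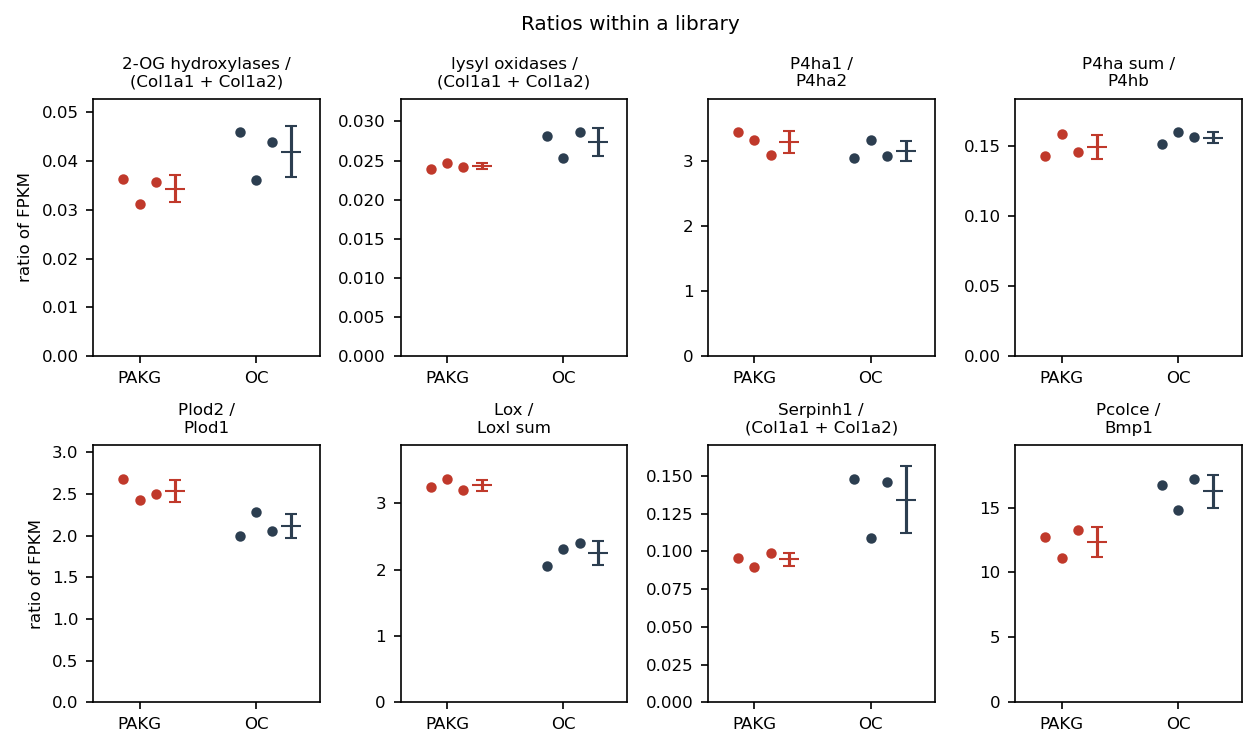
Ratios of FPKM within a library (y axes, starting at 0) for the 8 ratios, with PAKG in red at the left and OC in dark blue at the right of each panel. Points are single libraries in the order of replicates 1 to 3, and the bar beside them is the mean ± SD (n = 3). Lox over the Loxl sum lies at 3.21 to 3.37 in PAKG and at 2.05 to 2.40 in OC.

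Further genes of collagen handling moved in part. Of 39 such genes, all tested, 9 rose, beside 5.97% of all tested genes, and 1 fell, beside 8.73%, with a median log2 fold change of 0.14. Creb3l1, an endoplasmic reticulum bound transcription factor that drives collagen genes in osteoblasts, had 108, 105 and 110.1 FPKM in PAKG, against 49.6, 47.3 and 49.9 FPKM in OC, a log2 fold change of 1.14 ± 0.06 (SE) with an adjusted p of 0.000162. It was the one gene of this list past the 2-fold threshold. Emilin1, a glycoprotein of elastic fibres (log2 fold change 0.63, adjusted p 0.000792), Fbln5, fibulin-5 (0.56, adjusted p 0.00209) and Sparc, the collagen-binding osteonectin (0.63, adjusted p 0.003) also rose. The gene that fell, Tgm2, a protein crosslinking transglutaminase named here after its values were seen, had a log2 fold change of -0.42 and an adjusted p of 0.0195.

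The members also differed between replicates within a group, and most members deviated alike in replicate 2 of PAKG and OC. The coefficient of variation of the 31 tested members ran from 2.1% to 20.4% in PAKG, with a median of 6.5%, and from 1.23% to 13.8% in OC, with a median of 5.87%. In replicate 2 of both groups 14 members were below the mean of replicates 1 and 3 and 11 were above it, so that 80.6% lay on the same side in PAKG and OC, beside 76.7% of all tested genes. Mia3 and Loxl4 were higher in replicate 2 and Crtap was lower, each by more than 0.2 on the log2 scale in both groups. With replicate 2 of both groups left out, 13 members rose, beside 9.53% of all tested genes, and 1 fell, beside 12.3%, the 10 above with Crtap, Pcolce and Kdelr2 rising and P4ha3 falling.

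**Figure D4:**
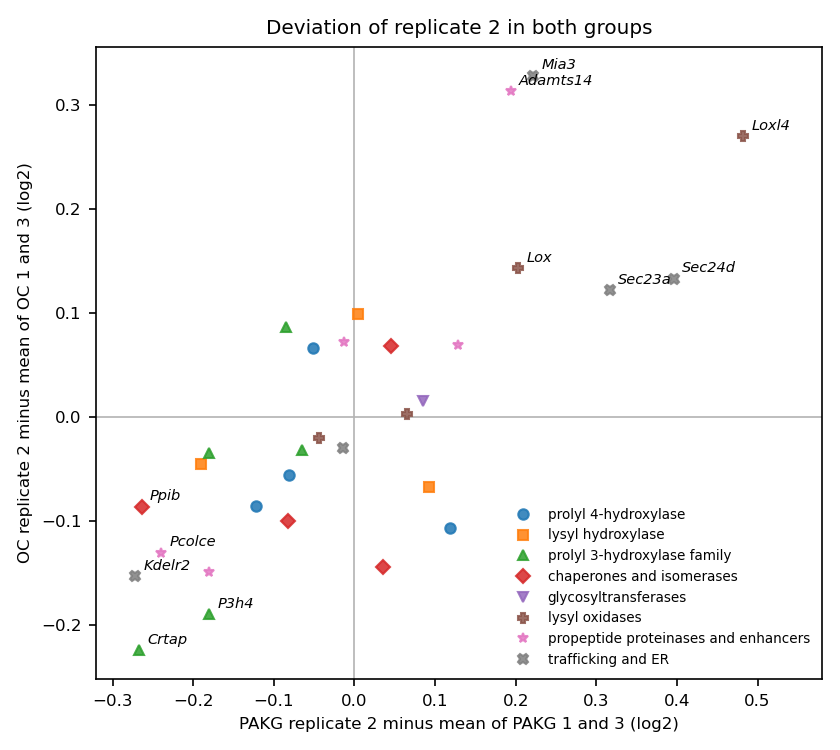
Log2 deviation of replicate 2 from the mean of replicates 1 and 3, in PAKG (x axis) and in OC (y axis), for the 31 tested members, with symbols and colours by role. Of the 31 points 14 lie in the lower left quadrant, low in both groups, and 11 in the upper right, high in both. Selected genes with large deviations are named.

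Leaving out one library moved the count of members that rose between 5 and 13. Without OC replicate 3 the calls of P3h4, Fkbp10, Fkbp14, Lox and Adamts2 were lost and 5 remained (Plod2, P3h1, P3h3, Bmp1 and Pcolce2). Without that library the higher calls over all 12590 tested genes also fell, from 751 to 354. That drop was not particular to OC replicate 3. Removing PAKG replicate 3 left fewer such calls, 332, and removing PAKG replicate 1 left 432. The count was 486 once OC replicate 1 was removed and 589 for OC replicate 2. Only the removal of PAKG replicate 2 raised it, to 988. OC replicate 3 is also the library with the highest adipocyte marker sum, 1.00 FPKM, and the part of this in the result was not tested. In bulk RNA, fewer cells of a type and less RNA per cell cannot be told apart, and this holds for every level given here.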

How the data were processed

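Poly(A) RNA libraries of MC3T3-E1 cells, 3 PAKG and 3 OC, were made with a stranded kit and sequenced by a service provider. Each library came with its own table of FPKM from the authors, rounded to 2 decimals. Per the submitters' processing notes the build was GRCm38 and the tools were StringTie, HISAT2, DESeq2, FastQC and cutadapt. For versions, annotation release and strand setting of the counting: not given in the sources used here. Since FPKM are normalised values, count models were left aside.

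Values were transformed to log2(FPKM + 0.1), and fold changes are on that scale, which understates changes of low genes. The 12590 genes whose mean reached 0.5 FPKM entered one limma fit (version 3.58.1 in R 4.3.3, lmFit and eBayes with a mean-variance trend), with 2-sided p-values adjusted over all of them by Benjamini-Hochberg. "Rose" and "fell" mean an adjusted p under 0.05. A second count also required a fold change of at least 2. The limma step was checked on simulated data, with noise drawn independently for each gene and library. The simulation held no deviations shared by replicate number and no scaling difference between libraries, so the check does not cover these. Ratios within a library were compared with exact 2-sided permutation tests. Coordinates are from GENCODE M21 on GRCm38, which held 99.76% of the gene IDs. Tables and figures used Python 3.11.15, numpy 2.4.6, pandas 2.3.3 and matplotlib 3.10.9.

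Depth was estimated from the steps between low FPKM of short genes, at 0.0239 to 0.0309 FPKM for 1 fragment on 1 kb. Whole reads were not recovered. Members and gene lists were chosen with earlier results of these data known. Values are given in full for every member that rose and for the most abundant member of each class, and for up to 4 genes of each further list by smallest adjusted p. Others named for their block result or for a ratio were added after their values were seen. Deviations of samples with the same replicate number correlated at 0.24, 0.43 and 0.192 over the tested genes. All were above the minimum of 0.1 for treating the numbers as pairs, while other pairs gave -0.312 to 0.138. PAKG replicate 3 with OC replicate 1, at 0.138, was above that minimum as well, so the rule does not single out libraries of the same number. The sources used here do not give what the number marks. Alternatives were pseudocounts of 1 and 0.01, no filter or a filter at a mean of 1 FPKM, rescaling to a common total, the replicate block, eBayes without the trend, median-ratio scaling, each library left out and replicate 2 of both groups left out.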

Additional observations from a re-analysis of the deposited data

How the results depend on the processing

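No member that rose changed direction under any alternative run, and between 0 and 4 members that did not pass the threshold changed sign under one. With the replicate block, the paired fit, 13 members rose and 2 fell, against 10 and 0 without it, and it changed no other call. A paired test of the ratios, chosen after seeing the data, gave exact p-values of 0.25 to 0.5. As 0.25 is the smallest that 3 pairs can give, this test could not place any ratio below 0.05. Leaving out one library gave 5 to 13 members higher, 0 to 1 lower, and 0 to 1 higher at 2-fold. Over all tested genes it gave 332 to 988 higher and 495 to 1239 lower. Without the mean-variance trend, and with replicate 2 of both groups left out, 1 member fell, P3h2 and P4ha3 in that order. Rescaling to a common total put 1 member past 2-fold, Pcolce2, and gave median log2 fold changes of 0.173 over all members, 0.173 over those outside the hydroxylases and their partners, 0.209 over those without hydroxylase activity, 0.226 for lysyl hydroxylases and 0.173 for Colgalt1, against 0.127, 0.127, 0.164, 0.181 and 0.127 before. The lysyl hydroxylase median was 0.128 with replicate 2 of both groups left out. The trafficking median ranged from -0.013 to 0.108 over left-out libraries, against 0.064. Called genes over the whole table numbered 1554 higher and 2157 lower with the replicate block, against 751 and 1099. With 3 libraries a group, changes near 0.3 on the log2 scale sat at the threshold, and members below about 0.5 FPKM were not tested. The causes of these shifts were not tested.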

Other observations

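Genes induced by hypoxia-inducible factor were listed because several collagen modifiers, among them P4ha1, P4ha2, Plod2 and Lox, are known targets of that factor. Of 15 such genes outside the set, 14 were analysed and 12 tested, 2 rose, beside 5.97% of all tested genes, and 3 fell, beside 8.73%, and their median log2 fold change was -0.05. Ndrg1, a stress-induced gene, had 4.80, 5.17 and 5.11 FPKM in PAKG, against 9.09, 8.39 and 8.59 FPKM in OC, a log2 fold change of -0.78 with an adjusted p of 0.000821 (limma). Slc2a1, the glucose transporter GLUT1, fell by 0.54 on the log2 scale (adjusted p 0.00235), and Pgk1, a glycolytic enzyme, fell by 0.45 (adjusted p 0.00984). Vegfa, the endothelial growth factor, rose with a log2 fold change of 0.41 (adjusted p 0.0215), as did Pfkfb3, named after its values were seen, with 0.52 (adjusted p 0.0427).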
